A study of Homo sapiens with 8 samples.

Results

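The HOX genes of PANC-1 cells, a line derived from a human pancreatic ductal carcinoma, are described here as the protein-coding genes of the HOXA, HOXB, HOXC and HOXD clusters. They were chosen by symbol, as HOX followed by a cluster letter and a number, and are 39 of the 58735 genes in the deposited table and of its 19951 protein-coding genes. The HOXA cluster holds 11 of them, HOXB 10, HOXC 9 and HOXD 9. RNA was sequenced from 8 libraries, 4 from cells transfected with a scrambled siRNA (siSCR) and 4 from cells transfected with an siRNA against BARD1 (siBARD1), the partner of BRCA1 in a ubiquitin ligase of DNA repair. Both groups were wild-type PANC-1 harvested 48 h after transfection, and replicates are numbered 1, 3, 4 and 5 in each. The labels do not say whether these came from separate cultures, so every p-value here reflects only how far these libraries vary, variation that could be technical. All cells were of a single line, and how many siRNA sequences were used is not given in the sources used here.

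HOX proteins are transcription factors that bind DNA through a homeodomain and give segments of the body axis their identity. Their genes lie in numerical order along each cluster, low numbers acting toward the head and high numbers toward the tail, and equally numbered genes of different clusters are paralogues. Retinoic acid and CDX factors help to switch the clusters on, trithorax-type complexes maintain their activity, Polycomb complexes keep them silent, and PBX and MEIS proteins bind DNA with them. Many tumour lines keep a stable set of active HOX genes.

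Library totals ran from 17816547 to 28590710 counts, with 19690 to 33562 of these on HOX genes. BARD1 counts were 415, 382, 381 and 424 in the siSCR libraries and 67, 75, 97 and 55 in the siBARD1 libraries, a log2 fold change of −2.69 (SE 0.12, edgeR adjusted p = 7.41e-11). The epithelial keratins KRT8, KRT18 and KRT19 were between 192.0 and 573 FPKM (fragments scaled by gene length and library total) in every library. Their means were lower in siBARD1 (262, 224 and 271) than in siSCR (461, 411 and 454). KRT7, a keratin of the same epithelial and ductal marker set, was at only 0.264 to 0.594 FPKM. Its mean was 0.501 in siSCR and 0.350 in siBARD1. Of the markers of other cell types INS, GCG and DCN were at 0 while PRSS1, CPA1, PTPRC and PECAM1 did not exceed 0.0515 FPKM. The fibroblast collagen COL1A1 was at 7.83 to 12.6 FPKM, and the mesenchymal marker VIM at 311 to 467, with means of 450.4 in siSCR and 322 in siBARD1. The part of these marker levels in the HOX values was not tested. The siSCR replicate 1 library stood apart from the other libraries on the second principal component, which held 14.1% of the variance. Without it the same counts of HOX genes, 7 higher and 1 lower, were past the threshold.

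Under control siRNA, PANC-1 expressed the HOXB and HOXC clusters, the HOXA cluster weakly and the HOXD cluster at trace level. Of the 39 genes, 23 had a mean of at least 1 FPKM, namely 6 of 11 in HOXA, 9 of 10 in HOXB, 8 of 9 in HOXC and 0 of 9 in HOXD. Summed over its members, HOXC reached 221.4 ± 10.03 FPKM (SD, n = 4) and HOXB 194.4 ± 5.04, against 14.8 ± 0.62 for HOXA and 0.517 ± 0.056 for HOXD. HOXC thus held 51.4% of the summed HOX level, HOXB 45.1%, HOXA 3.43% and HOXD 0.120%.

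**Figure D1:**
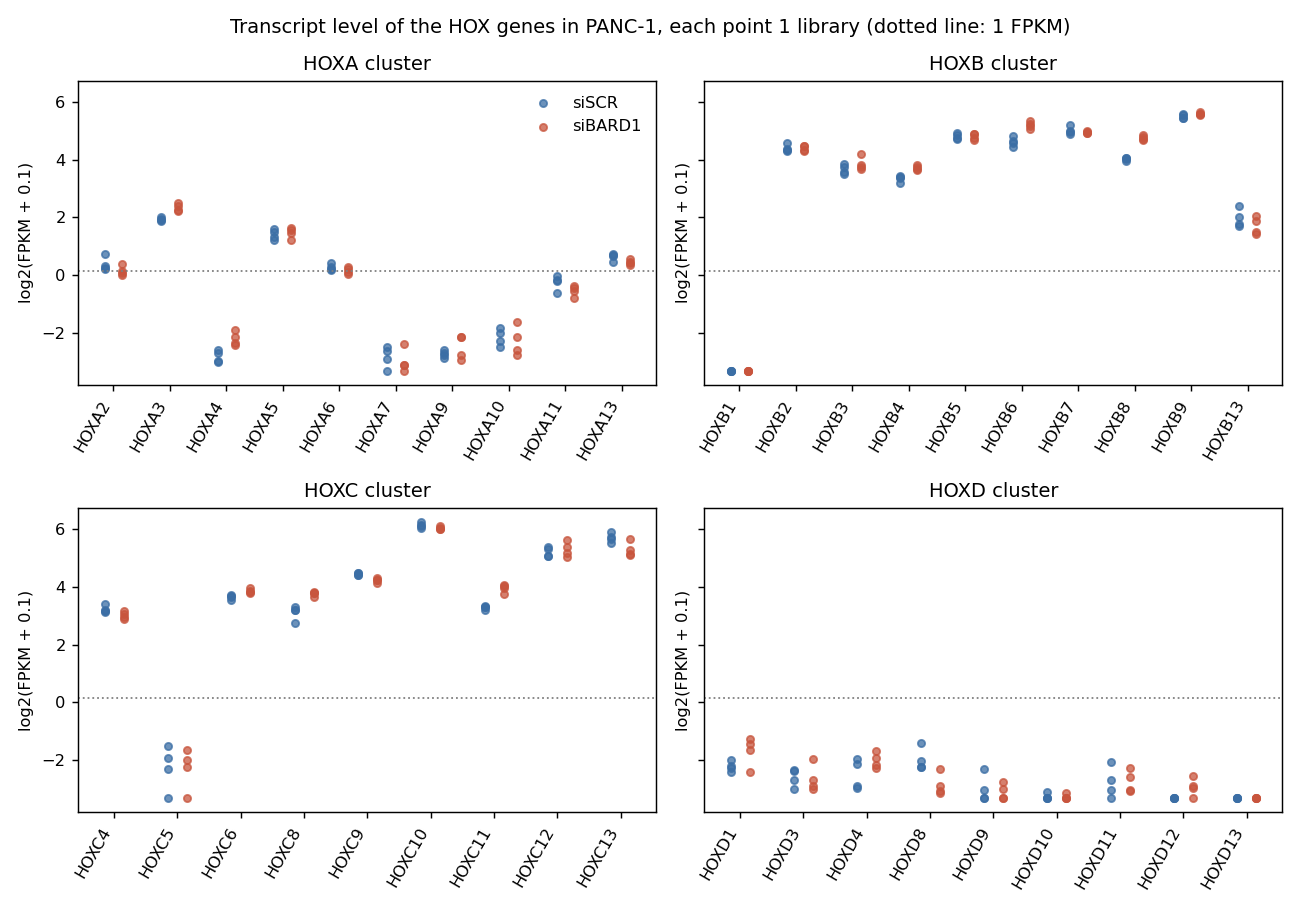
Level of 38 HOX genes as log2(FPKM + 0.1), ordered by number within each cluster, 1 point per library, siSCR in blue and siBARD1 in red, with a dotted line at 1 FPKM. HOXB2 to HOXB9 and 8 of 9 HOXC genes sit far above the line in all libraries, and every HOXD gene sits below it.

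HOXC10, a posterior gene used in hindlimb and lumbar patterning, had the highest level, with 70.8, 75.9, 69.1 and 65.3 FPKM in siSCR replicates 1, 3, 4 and 5. Its mean of 70.3 ± 4.42 FPKM exceeded that of 95.02% of the 10450 protein-coding genes with at least 1 FPKM. HOXC13, a regulator of hair and nail keratin genes, followed at 59.9, 52.5, 45.7 and 50.5 FPKM, and its libraries did not overlap those of HOXC10. HOXB9, a gene of thoracic patterning, had 43.9, 47.6, 46.6 and 44.0 FPKM. Its replicates 3 and 4 lay within the range of HOXC13, and replicates 1 and 5 below it. HOXC12 came next at 41.7, 33.2, 33.3 and 39.4 FPKM, below every HOXB9 library.

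The middle of the order ran without clear steps. HOXB7 had 32.0, 37.0, 30.8 and 29.8 FPKM in the 4 siSCR libraries and overlapped both HOXC12 and HOXB5. HOXB5 had 26.8, 30.0, 26.1 and 28.6 FPKM. HOXB6, HOXC9 and HOXB2 followed with means of 24.6 ± 2.75, 21.7 ± 0.56 and 21.0 ± 1.85 FPKM, each overlapping its neighbour. Below a gap came HOXB8 at 16.3 ± 0.70 FPKM, HOXB3 at 12.8 ± 1.43 and HOXC6 at 12.5 ± 0.64, and below another gap HOXB4, HOXC11, HOXC4 and HOXC8 between 10.1 and 8.65 FPKM. Of the 22 pairs of neighbours in the order of the 23 genes, 14 overlapped in their siSCR libraries and 8 did not.

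The highest HOXA genes were at the level of HOXB13, a prostate and hindgut gene that lies apart from the rest of its cluster and had a mean of 3.89 ± 0.94 FPKM. HOXA3 had 3.76, 3.95, 3.58 and 3.70 FPKM. HOXA5 had 2.41, 2.75, 2.23 and 2.94 FPKM, below every HOXA3 library. HOXA13, HOXA2 and HOXA6 lay between 1.47 and 1.11 FPKM in mean. HOXA11 and HOXA10, at 0.744 and 0.128 FPKM, were counted in enough libraries to be tested.

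The other 14 genes did not pass the filter on low counts, with 0 to 16 counts in any library and at most 0.318 FPKM. They were HOXA4, HOXA7, HOXA9, HOXB1, HOXC5 and the 9 HOXD genes. HOXB1 and HOXD13 had 0 counts in all 8 libraries, and a floor of 3 counts per library allows levels of up to 0.0701 and 0.0775 FPKM for them, counting error only. Inside clusters the silent genes stood beside active ones: HOXC5 had a mean of 0.130 FPKM between HOXC4 and HOXC6, and HOXB1 had none beside HOXB2 at 21.0. Levels of HOXC5, HOXD3 and HOXD4 are uncertain because 59.9%, 62.2% and 80.5% of their exonic bases are shared with another gene on the same strand. The siSCR mean of HOXC4 and HOXC6 is less affected, with 17.8% and 15.7% shared. Genes on the opposite strand share 62.5% of the exonic bases of HOXA7 and 58.1% of those of HOXD1. Strandedness of the counting is not stated, so the levels of HOXA7 and HOXD1 are uncertain too.

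After BARD1 siRNA, 7 HOX genes rose, 1 fell, and 17 of the 25 tested did not pass the threshold of an adjusted p of 0.05 (edgeR, adjusted over all 15287 genes tested). The genes that rose were HOXA3, HOXB4, HOXB6, HOXB8, HOXC6, HOXC8 and HOXC11, and HOXC9 fell. They make 28% of the tested HOX genes higher, where 18.9% of all genes were higher, and 4.0% lower, where 20.0% of all genes were lower. In both directions together the share was 32.0% of the tested HOX genes against 38.9% of all genes. The median log2 fold change was −0.00059 over the tested HOX genes and 0.00436 over all genes. These shares describe the HOX genes that passed the filter, and no difference between HOX genes and other genes was tested.

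**Figure D2:**
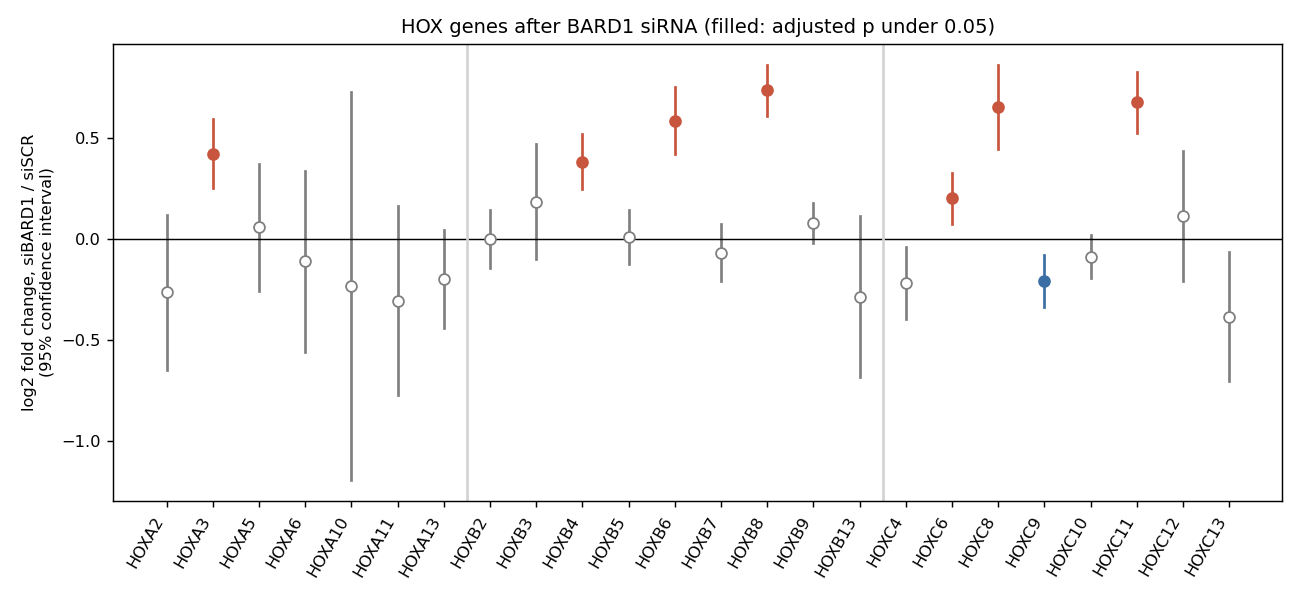
Log2 fold change of siBARD1 over siSCR for 24 tested HOX genes, ordered by cluster and number, with 95% confidence intervals; filled points had an edgeR adjusted p under 0.05, red higher and blue lower. Values ran from 0.73 for HOXB8 to −0.39 for HOXC13, which is open because its adjusted p was 0.058.

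By number, 5 of the 10 tested genes numbered 4 to 8 rose and 0 fell, while 1 of 5 numbered 1 to 3 rose and 1 of 10 numbered 9 to 13 rose and 1 fell. These are 50%, 20% and 10% higher, beside 18.9% of all genes higher and 20.0% lower. The grouping by number was made with earlier results of these data known, and the difference between the number groups was not tested. The summed level of the genes numbered 4 to 8 was 145.9 ± 6.53 FPKM in siSCR and 175.6 ± 6.20 in siBARD1 (SD, n = 4 each). This sum holds the same 5 genes that rose, so it is not separate support. The sum over the genes numbered 9 to 13 was 242.6 ± 10.8 and 233.2 ± 18.6 FPKM. By cluster, HOXB summed to 222.2 ± 7.98 FPKM in siBARD1 and HOXC to 215.8 ± 18.3. The HOXB libraries of siBARD1, from 213.5 to 231 FPKM, lay above those of siSCR, from 189 to 201, and the HOXC libraries overlapped. In these bulk samples a change in RNA per cell and a change in the share of cells that express a gene cannot be told apart.

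HOXB8, a gene of thoracic and haematopoietic patterning, rose most. With replicates in the order 1, 3, 4 and 5, its siSCR libraries had 15.2, 16.8, 16.3 and 16.7 FPKM, and its siBARD1 libraries 28.6, 27.2, 25.5 and 26.5. All siBARD1 libraries lay above all siSCR libraries, as they did for 17.7% of all genes tested. The log2 fold change was 0.73 (SE 0.06, adjusted p = 7.43e-08), a 1.66-fold rise. Its gene, at chr17:48611377-48614939 on the minus strand (GRCh38), shares no exonic base with another gene.

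HOXC8, its paralogue and a gene of thoracic patterning, had 6.65, 9.68, 9.16 and 9.12 FPKM in siSCR and 12.6, 13.7, 14.0 and 13.8 in siBARD1. The siSCR replicate 1 library was the lowest, and the groups did not overlap. The log2 fold change was 0.65 (SE 0.10, adjusted p = 5.89e-05). The gene, at chr12:54009106-54012362 on the plus strand, also shares no exonic base with another.

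HOXC11, a posterior gene, had 10.04, 9.71, 9.67 and 9.14 FPKM in siSCR and 16.3, 13.3, 15.5 and 16.5 in siBARD1. The lowest siBARD1 library, replicate 3, was above every siSCR library. The log2 fold change was 0.68 (SE 0.07, adjusted p = 1.46e-06), at chr12:53973126-53977643 on the plus strand, again with no shared exonic base. It was the 1 gene numbered 9 or above that rose, and its neighbours HOXC10 and HOXC12 did not pass the threshold.

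HOXB6 had 21.5, 23.8, 24.9 and 28.1 FPKM in siSCR and 37.7, 40.3, 35.7 and 33.2 in siBARD1. The groups did not overlap, and the log2 fold change was 0.58 (SE 0.08, adjusted p = 3.40e-05). HOXB6 lies at chr17:48595751-48604992 on the minus strand, where 16.6% of its exonic bases are shared with HOXB3 and 16.3% with the antisense gene HOXB-AS3. Strandedness of the counting is not stated, so reads from HOXB6 and HOXB-AS3 on those bases cannot be told apart.

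HOXB4, known as a regulator of blood stem cell expansion, had 9.09, 10.5, 10.2 and 10.6 FPKM in siSCR and 13.4, 14.0, 12.7 and 12.4 in siBARD1. With no overlap between groups, HOXB4 changed by 0.38 on the log2 scale (SE 0.06, adjusted p = 1.86e-04). HOXA3, a gene of pharyngeal pouch and thymus development, had the 4 siSCR values given above and 4.67, 4.55, 5.22 and 5.56 FPKM in siBARD1. Its groups did not overlap either, with a change of 0.42 on the log2 scale (SE 0.08, adjusted p = 5.87e-04). Shares of exonic bases in common with a gene on the same strand were 17.1% for HOXB4 and 9.24% for HOXA3, and 15.4% of HOXA3 faces antisense genes.

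The 2 smallest changes past the threshold were in opposite directions at the centre of HOXC. HOXC6 had 12.5, 12.8, 13.2 and 11.7 FPKM in siSCR and 15.5, 14.3, 14.0 and 13.7 in siBARD1, with a log2 fold change of 0.20 (SE 0.06, adjusted p = 0.0134). HOXC9 had 21.3, 22.2, 22.1 and 21.1 FPKM in siSCR and 18.9, 19.6, 17.5 and 18.9 in siBARD1, with a log2 fold change of −0.21 (SE 0.06, adjusted p = 0.0111). In both genes the groups stood just apart. Without siBARD1 replicate 4 HOXC9 was at −0.18 with an adjusted p of 0.0527, so its call was lost in that smaller fit. For each of the 8 genes past the threshold the exact two-sided permutation p was 0.0286, the smallest that 4 against 4 libraries can give.

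**Figure D3:**
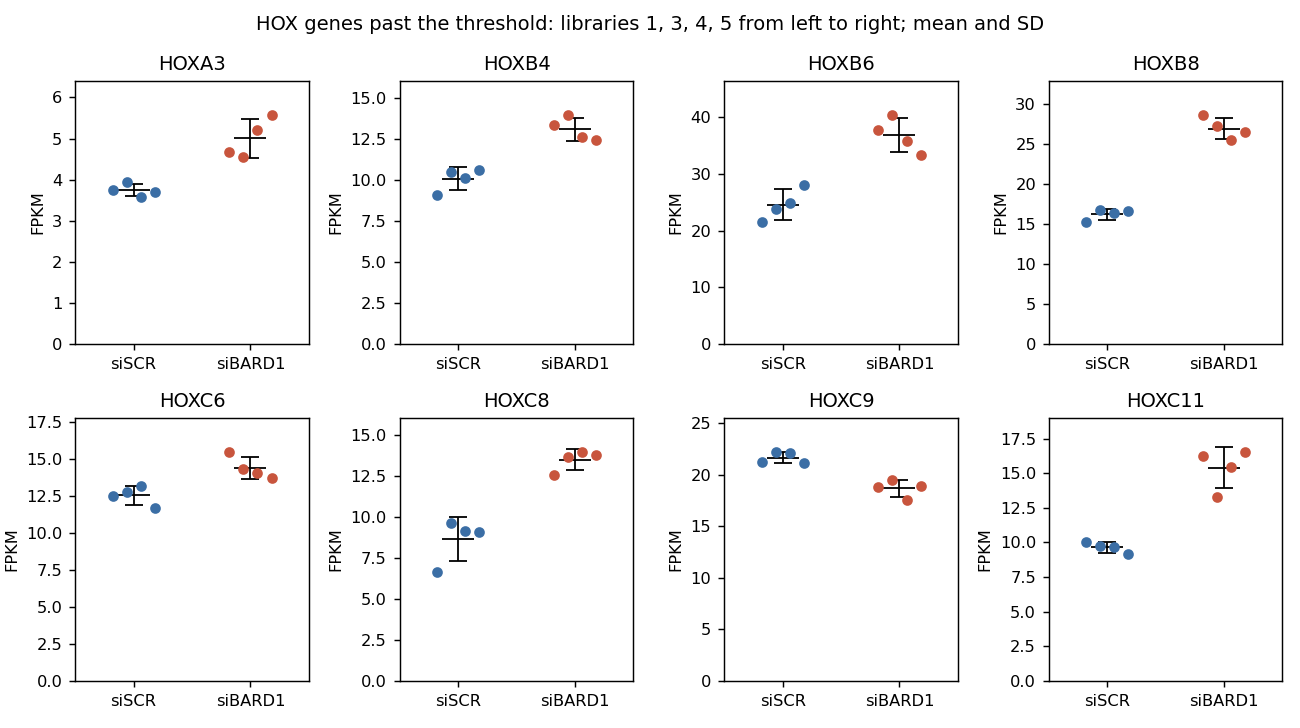
FPKM of the 8 HOX genes past the threshold in each library, replicates 1, 3, 4 and 5 from left to right within a group, with mean and SD. In HOXC9 the siBARD1 points lie below the siSCR points, and in the other 7 genes they lie above.

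Several of the most abundant HOX genes had narrow intervals around 0. HOXC10 had 68.1, 64.9, 64.1 and 66.4 FPKM in siBARD1, overlapping siSCR, and its log2 fold change of −0.09 had a 95% interval of −0.20 to 0.02. HOXB9 had 47.3, 47.1, 47.5 and 49.9 FPKM in siBARD1, with a log2 fold change of 0.08 and an interval of −0.02 to 0.18. With total-count scaling it was past the threshold, at 0.13 (adjusted p = 0.0345). HOXB7 had 30.0, 31.9, 30.4 and 30.7 FPKM in siBARD1, with a log2 fold change of −0.07 and an interval of −0.21 to 0.07. HOXB5 had 29.8, 29.3, 25.8 and 26.98 FPKM in siBARD1, with a log2 fold change of 0.01 and an interval of −0.12 to 0.14. HOXB2 overlapped in the same way, at −0.00059 with an interval of −0.15 to 0.14. HOXB5 and HOXB7 flank HOXB6, and HOXB7 is followed by HOXB8, yet the intervals of HOXB5 and HOXB7 lay wholly below those of HOXB6, 0.42 to 0.75, and HOXB8, 0.61 to 0.86.

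HOXC13 and HOXC12 varied more between libraries. HOXC13 had 51.0, 34.5, 34.9 and 39.1 FPKM in siBARD1, and only replicate 1 of that group reached into the siSCR range. The fitted log2 fold change came to −0.39 (SE 0.14, adjusted p = 0.058), past the threshold in 10 of 20 alternative settings. Without siBARD1 replicate 1 it was −0.53 with an adjusted p of 1.94e-04. HOXC12 had 49.6, 32.8, 36.1 and 41.3 FPKM in siBARD1, with a log2 fold change of 0.11 and an interval of −0.21 to 0.43. The replicate 1 libraries were the highest of their group for HOXC13, HOXC12 and HOXB13 under both siRNAs.

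HOXC4 had a log2 fold change of −0.22 with an adjusted p of 0.0504. HOXB3 was at 0.18 with an interval of −0.10 to 0.47. HOXA5 had 2.83, 2.21, 2.65 and 3.02 FPKM and a log2 fold change of 0.06, with an interval of −0.26 to 0.37. The low genes HOXA2, HOXA6, HOXA10, HOXA11, HOXA13 and HOXB13 had log2 fold changes between −0.11 and −0.31, all with intervals that included 0. HOXA10 had the widest interval, −1.20 to 0.73, so at its depth a change of moderate size was not detectable.

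Paralogues were compared within libraries, as the difference of their log2(CPM + 0.5), where CPM are counts scaled to library total. Because of the added 0.5, scaling between libraries does not cancel fully. It also compresses differences that involve low genes, such as HOXA6, HOXA10 and HOXA11. All 14 pairs of equally numbered genes that were both tested were taken. HOXB8 and HOXC8 moved alike, their difference being 1.02 ± 0.18 in siSCR and 1.101 ± 0.13 in siBARD1 (SD, n = 4 each, exact permutation p = 0.429). In 6 pairs the groups did not overlap, where 36.1% of single genes had groups that did not. The HOXA11 and HOXC11 pair shifted most, by −0.90, from a difference of −3.86 ± 0.23 to −4.76 ± 0.21. HOXA6 against HOXB6 shifted by −0.66, HOXB4 against HOXC4 by 0.59, HOXB6 against HOXC6 by 0.38, HOXB9 against HOXC9 by 0.29 and HOXA6 against HOXC6 by −0.28. Each of these 6 had an exact two-sided permutation p of 0.0286, the smallest possible, which is 0.0667 after Benjamini-Hochberg adjustment over the 14 pairs and so does not pass 0.05. These pairs were set up after the single-gene values had been seen.

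The clusters carry microRNA genes whose mature products have HOX transcripts among their known targets, and cleavage of HOXB8 mRNA by miR-196 is a textbook case. The mature sequences are shown, 5′ to 3′ from RefSeq (GRCh38.p14) with the seed, bases 2 to 8, in capitals. Annotated 3′ UTRs, 1 per protein-coding gene, were searched for the complement of these sequences. The search was chosen after the values had been seen, mature microRNAs were not measured by this poly-A RNA-seq, and a match is a description of letters only.
hsa-miR-196a-5p: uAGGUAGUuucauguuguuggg
hsa-miR-196b-5p: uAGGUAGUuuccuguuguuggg
hsa-miR-10a-5p: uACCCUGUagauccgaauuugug
The miR-196 sequences share a seed. MIR196A1 encodes miR-196a-5p in HOXB at chr17:48632532-48632553 on the minus strand, MIR196A2 the same product in HOXC at chr12:53991762-53991783 on the plus strand, and MIR196B the sister sequence in HOXA at chr7:27169528-27169549 on the minus strand. MIR10A lies inside the annotated HOXB4 gene, within its exonic bases, at chr17:48579904-48579926 on the minus strand.

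The HOXB8 3′ UTR holds a window that pairs with miR-196a-5p over its whole length, with 21 of 22 Watson-Crick pairs and 1 G:U pair at base 5 of the microRNA. It starts at base 411 of 856 in the annotated 3′ UTR, at chr17:48612770-48612791 on the minus strand (GRCh38). It was the 1 3′ UTR of 19059 searched, 1 per protein-coding gene, with 18 or more Watson-Crick pairs, and 13 others had 17. Because of the G:U pair it lacks the plain seed match ACTACCT. Seed-match windows of HOXB6, HOXC8 and HOXA3, which also rose, are shown beside it as DNA letters of the transcript strand. The bases that face the seed are in capitals. HOXB4, HOXC6 and HOXC11 rose without a match to the miR-196 or miR-10 seed.
HOXB8: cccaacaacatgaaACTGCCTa
HOXB6: tggaaggagcacatACTACCTa
HOXC8 first: cactcacaactctaACTACCTg
HOXC8 second: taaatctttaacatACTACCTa
HOXA3 for miR-10: actctttgatcagaaACAGGGTa
The HOXB6 window lies at chr17:48595934-48595955 on the minus strand. The HOXC8 windows lie at chr12:54011495-54011516 and chr12:54012231-54012252 on the plus strand, and the HOXA3 window at chr7:27107608-27107630 on the minus strand. Watson-Crick pairs numbered 12 of 22 in the HOXB6 window and in each HOXC8 window, and 10 of 23 in the HOXA3 window. Genes that did not pass the threshold had such windows too, among them HOXB7 with 13 of 22 pairs, HOXA5 with 11 and HOXB13 with 8.

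The plain miR-196 match ACTACCT, read on the transcript strand, was in the 3′ UTRs of 9 of the 39 HOX genes (23.1%), against 7.18% of all 3′ UTRs and 5.82% of the 13995 within the HOX range of 262 to 3834 bases. Among the 9 were HOXA5, HOXA7 with 4 matches, HOXA9 with 2, HOXB1, HOXB6, HOXB7, HOXB13 and HOXC8 with 2. Of these, 6 were tested, and 2, HOXB6 and HOXC8, rose while 0 fell. Of the 19 tested HOX genes without the match, HOXB8 among them, 5 rose and 1 fell. Over all tested genes the median log2 fold change was 0.064 for the 1023 with a match, 27.96% of them higher and 18.2% lower. It was −0.002 for the 11637 without, 20.6% of them higher and 22.9% lower. In this split and those below, 3′ UTR length was not matched, and the differences were not tested. The miR-10 match ACAGGGT was among others in HOXA3, which rose, and HOXB3, which did not pass the threshold. It was in 7.69% of HOX 3′ UTRs and 12.8% of all 3′ UTRs. Of the 1888 tested genes with it, 24.8% were higher, against 20.5% of the 10772 without.

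A match to the seed of miR-615-3p, whose gene lies in HOXC5, was in 2 HOX 3′ UTRs, those of HOXB4 and HOXC6, which both rose. Of the 431 tested genes with that match, 22.7% were higher, against 21.1% of the 12229 without. The letters CTACCAG, taken from an earlier analysis of these data, were in the HOXA13 and HOXC12 3′ UTRs, and neither gene passed the threshold. Over all tested genes the median log2 fold change was −0.12 for the 1030 with these letters, 39.5% of them lower, and 0.01 for the 11630 without, 21.0% of them lower. As the letters came from these same data, that split may have been fixed in advance and lends no independent support. The 6 microRNA genes of the clusters had 0 to 14 counts per library and were not tested. MIR10A and MIR196B, both at 0, share all their bases with HOXB4 and HOXA9.

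Noncoding RNA genes of the clusters were counted as 15 tested of 24 found, of which 2 rose, 1 fell and 12 did not pass the threshold, with a median log2 fold change of 0.09. That is 13.3% higher and 6.67% lower, where 18.9% and 20.0% of all tested genes were. HOTAIR, a noncoding RNA transcribed against the HOXC genes between HOXC11 and HOXC12 and studied as a partner of Polycomb, had 19.6, 18.5, 17.8 and 20.4 FPKM in siSCR and 28.2, 23.6, 23.1 and 26.8 in siBARD1. All siBARD1 libraries were above all siSCR libraries, and the log2 fold change was 0.41 (SE 0.07, adjusted p = 1.97e-04). It shares 6.38% of its exonic bases with opposite-strand entries. HOTAIRM1, a noncoding RNA of the HOXA cluster, had 7.21, 9.51, 7.33 and 9.01 FPKM in siSCR and 5.14, 5.72, 5.59 and 4.28 in siBARD1, a log2 fold change of −0.66 (SE 0.12, adjusted p = 4.14e-04), and entries on its own strand overlap 43.2% of its exonic bases. HOXB-AS3 was at 0.43 (SE 0.14, adjusted p = 0.0283), its groups overlapped, and 30.1% of its exonic bases face HOXB3, HOXB5 and HOXB6.

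Among the TALE homeodomain cofactors, 2 of 7 tested rose and 0 fell, with a median log2 fold change of 0.28 against 0.00436 over all genes. The share higher was 28.6% against 18.9% of all genes, and 20.0% of all genes were lower. MEIS3 went from 1.05 ± 0.24 to 1.89 ± 0.30 FPKM (SD, n = 4 each), a log2 fold change of 0.85 (SE 0.15, adjusted p = 3.85e-04). PBX2 went from 23.3 ± 0.41 to 28.2 ± 0.84 FPKM, a log2 fold change of 0.28 (SE 0.04, adjusted p = 1.13e-04). In neither gene did the groups overlap.

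Polycomb genes moved both ways. Of 11 genes of Polycomb repressive complex 2, which methylates histone H3 at lysine 27, 3 rose, 4 fell and 4 did not pass the threshold, with a median of −0.06. These are 27.3% higher and 36.4% lower, beside 18.9% and 20.0% of all genes. EED, the subunit that reads the mark, fell from 4.49 ± 0.31 to 2.63 ± 0.08 FPKM (log2 fold change −0.76, SE 0.07, adjusted p = 3.16e-07). PHF19, an accessory subunit, fell by 0.64 on the log2 scale, while JARID2, another accessory subunit, rose by 0.52 and the alternative methyltransferase EZH1 by 0.47. Of 19 genes of Polycomb repressive complex 1, 4 rose, 6 fell and 9 did not pass, with a median of −0.11, or 21.1% higher and 31.6% lower beside the same shares of all genes. PCGF6 and CBX2 fell by 0.64 and 0.31 on the log2 scale, and CBX8 and KDM2B rose by 0.40 and 0.34.

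Of 16 tested genes of the MLL and trithorax complexes and the H3K27 demethylases, which act against Polycomb, 7 rose, 2 fell and 7 did not pass the threshold, with a median of 0.14. The shares were 43.8% higher and 12.5% lower, beside 18.9% and 20.0% of all genes. AFF1, an elongation factor subunit, rose by 0.30 on the log2 scale and RBBP5, a core MLL subunit, by 0.29. PSIP1, which tethers MLL to chromatin, fell by 0.41 and DPY30 by 0.22, the latter with 50.5% of its exonic bases shared with MEMO1.

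In the retinoic acid pathway 0 of 11 tested genes rose, 4 fell and 7 did not pass the threshold, with a median of −0.13. The 4 are 36.4% of the 11 tested, beside 20.0% of all genes lower and 18.9% higher. CYP26B1, an enzyme that breaks down retinoic acid, fell from 3.25 ± 0.23 to 1.67 ± 0.18 FPKM (log2 fold change −0.95, SE 0.10, adjusted p = 1.40e-06). CRABP2, which carries retinoic acid to its receptors, fell from 122.8 ± 18.5 to 79.7 ± 6.85 FPKM (log2 fold change −0.62, SE 0.10, adjusted p = 4.47e-04). The other 2 that fell were ALDH1A3 and RDH10, which take part in making retinoic acid.

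Both tested genes of the CDX and ParaHox group, 2 of its 6 members, fell, where 20.0% of all genes did. PDX1, the pancreatic ParaHox factor, fell by 0.61 on the log2 scale (SE 0.11, adjusted p = 3.11e-04) and CDX2, an intestinal factor, by 0.33 (SE 0.13, adjusted p = 0.0471). Of 14 tested genes that flank the clusters, 4 rose, 2 fell and 8 did not pass the threshold, with a median of 0.04. These are 28.6% higher and 14.3% lower, beside 18.9% and 20.0% of all genes. CALCOCO1 and SKAP2 rose by 0.29 and 0.24 on the log2 scale, and SNX11 and HNRNPA1 fell by 0.43 and 0.41. Whether any list differed from other genes, or bears on the HOX genes, was not tested.

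**Figure D4:**
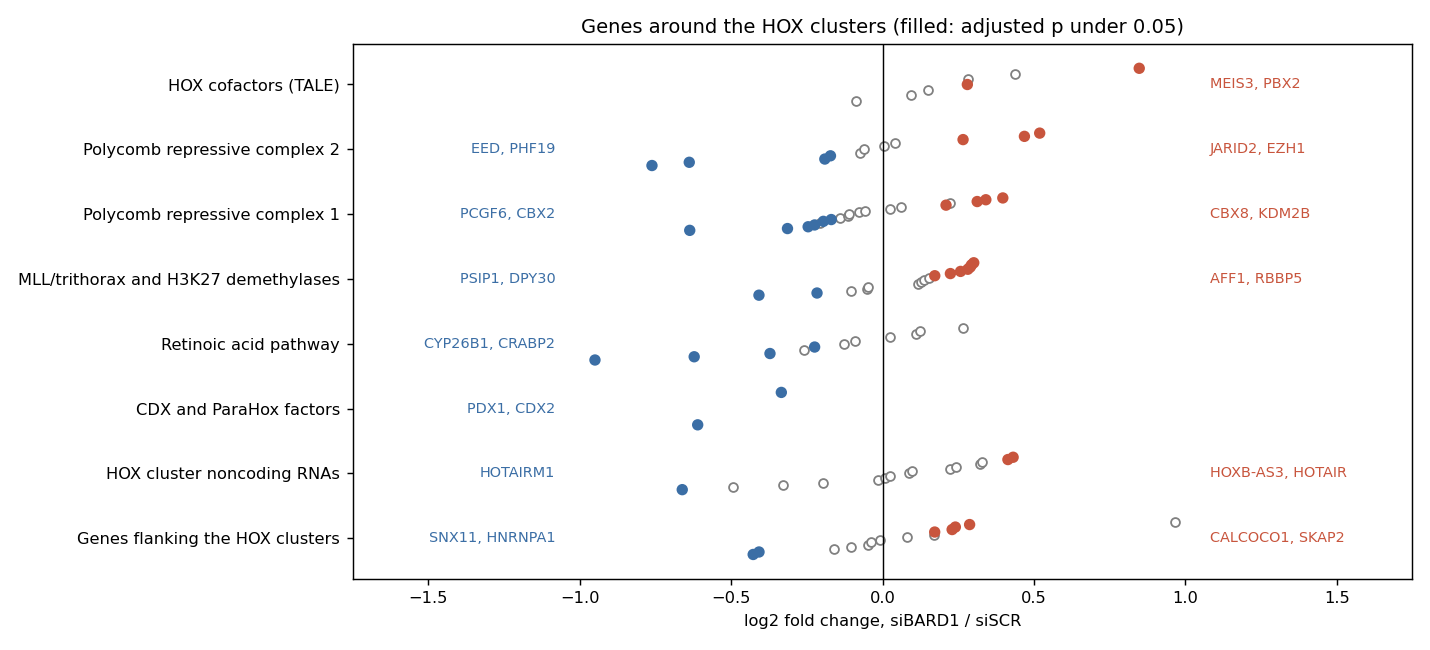
Log2 fold change of siBARD1 over siSCR for every tested gene of 8 lists around the HOX clusters, 1 point per gene, filled where the edgeR adjusted p was under 0.05, with the genes given in the text named at the sides. The retinoic acid and CDX lists have filled points below 0 only, the cofactor list above 0 only, and the Polycomb lists on both sides.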

How the data were processed

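The authors deposited whole-number read counts per gene and FPKM values per gene, with a column for each library. The submitters' processing notes list featureCounts, HISAT2 (2.0.5) and fastp. Neither settings nor strandedness is stated there. The notes list GRCh37 and hg19, but all 58735 deposited gene entries have the starts and ends of GENCODE 29 on GRCh38, so coordinates here are GRCh38.

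Counts were tested with edgeR 4.0.16 (R 4.3.3): filterByExpr, TMM scaling, its quasi-likelihood test (robust option, no covariates) of siBARD1 over siSCR, Benjamini-Hochberg adjustment over 15287 genes and a threshold of 0.05. Counts were also simulated for those 15287 genes, with 50 genes changed at each fold. Of the genes changed 1.25-fold 34% were called, as were 66% of those changed 1.5-fold. The share was 86% for 2-fold changes, and 9 unchanged genes were called. Far fewer genes changed there than the 5946 called in the data, which makes the adjustment stricter. These shares therefore do not give the power of the test on the real counts. Levels are deposited FPKM. Alternatives used DESeq2 1.42.0 and limma 3.58.1, the latter also on log2(FPKM + 1) and log2(FPKM + 0.1). No library was a duplicate of another (chi-square per gene between libraries of a group, 4.25 to 17.6).

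Members and lists were chosen with earlier results of these data known. Values per library are given for genes past the threshold and the 3 highest of each cluster with at least 1 FPKM; in each list, the 2 largest changes per direction past the threshold are named, and any further gene was named after its values were seen. The single values of 1 member, which stays in the counts and sums, are not reported here. Promoter and protein sequences were not used here.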

Additional observations from a re-analysis of the deposited data

Results flagged for a closer look

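Over 15 HOX genes given library by library, each group of 4 was screened for a library far from the other 3. HOXB9 in siBARD1 replicate 5 stood out at 49.9 FPKM, with the other 3 siBARD1 libraries between 47.1 and 47.5, a gap that was 0.859 of the group's range and above Dixon's 95% critical value for 4 samples. It was 1 of 30 groups, and chance flags about 1 group in 20.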

How the results depend on the processing

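HOX genes past the threshold numbered 7 higher in most settings, 6 with an adjusted p under 0.01 and 8 with total-count scaling, which added HOXB9. The number lower, 1 by edgeR, was 2 with RLE scaling, a filter of 1 CPM in 4 libraries and limma on log2(FPKM + 1) or log2(FPKM + 0.1). It was 3 with DESeq2, limma-voom and protein-coding genes only, 4 with no filter on low counts and 0 with an adjusted p under 0.01. With the replicate number as a block it was 3, and 6604 genes of the whole table were called, against 5946 without a block. In that edgeR fit HOXC13 was at −0.39 with an adjusted p of 2.15e-05. The numbers were not taken as pairs because the labels do not say what they mark. Same-numbered libraries correlated at 0.183, 0.167, 0.045 and −0.030 in their deviations, and not every library correlated best with its own number. Leaving out each library gave 7 higher throughout and 0 to 2 lower. The fewest, 0, came without siBARD1 replicate 4, when HOXC9 was at −0.18, and 2 came without siBARD1 replicate 1 or 5 or siSCR replicate 3 or 4. The count of HOX genes with at least 1 FPKM stayed at 23.

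Of the 15 HOX genes followed through every setting, 3 changed sign when a library was left out. The range was −0.0081 to 0.14 for HOXA5, −0.022 to 0.051 for HOXB5 and −0.0059 to 0.20 for HOXC12. The cause was not tested. HOXC13 ran from −0.53 to −0.31 over all settings, with adjusted p from 2.15e-05, with the replicate number as a block, to 0.140. Total-count scaling moved the median of all genes by 0.048, the most of any scaling. The genes added to HOXC9 were HOXC13 and HOXC4, and with no filter also HOXB13 and HOXD8. Low counts limit the HOXD genes, with at most 36 counts in all per library.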
